A study of Mus musculus with 9 samples.

Results

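The cytosolic ribosomal proteins were followed across microvascular fragments of the mouse brain, which are short pieces of small blood vessels, and the brain tissue around them. The set was chosen by symbol. It took every gene with a probe set of its own whose platform symbol starts with Rpl or Rps and a digit, without the Rps6k kinases and the pseudogene symbols that contain -ps. This gave 47 symbols of 18194 genes, and 44 of them passed the filter, a log2 value of 4 or more on any 3 of the 9 arrays, which left 12009 genes in all. Of the 44, 20 encode proteins of the large 60S subunit, 18 proteins of the small 40S subunit, and 5 are paralogs of such proteins (Rpl22l1, Rpl39l, Rpl7l1, Rps27l and Rps4l). The remaining symbol, Rps19bp1, is no ribosomal protein but a nucleolar protein that binds Rps19. The 3 symbols that did not pass were the muscle paralog Rpl3l, highest at 2.68 on any array, and Rps16 and Rps27, whose only probe sets of their own lay under 4 on all 9 arrays. The member nearest the filter from inside was Rpl39l, lowest at 4.24.

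Each of the 9 samples was measured on 1 array, 3 arrays to a group, and the labels call the arrays of a group biological replicates. Embryonic fragments and the embryonic rest of brain (the tissue left without the fragments) came from NMRI mice at embryonic day 18.5, of unstated sex. One label of rest of brain replicate 3 states another embryonic day than its title, which was followed. Adult fragments came from mice aged 1 year on a mixed C57/SV129 background, where replicate 2 was female and replicates 1 and 3 were male. Embryonic RNA was purified with a micro kit and adult RNA with a mini kit, so age, strain and kit cannot be told apart in any comparison with the adults. No genotype, transgene or treatment is given for any group, and nothing in the sources used here says whether animals were pooled.

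The cytosolic ribosome makes the proteins of the cell from messenger RNA. Its 40S subunit reads the message at the decoding centre, and its 60S subunit joins the amino acids and holds the exit tunnel. Ribosomal proteins are built into the subunits in near equal numbers, their messages are among the most abundant of any cell, and most of these messages begin with a run of pyrimidines (the 5′ terminal oligopyrimidine tract, TOP) that ties their translation to growth signals through mTOR and Larp1. The genes have many processed pseudogenes, so a probe can bind messages of more than 1 locus.

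Values are GCRMA values on the log2 scale, where 1 unit is a 2-fold difference. They are comparable between arrays for 1 probe set, not between probe sets as amounts of RNA. A difference is given as a difference of group means ± the standard error of the limma fit, and a gene was called where its Benjamini-Hochberg adjusted p over all 12009 genes was under 0.05. Over the series, defining markers followed the labels. All 10 endothelial markers (such as Cldn5 and Pecam1) were called higher in embryonic fragments than in the rest of brain, with a median difference of 7.03, and all 8 neuronal markers were called lower, with a median of -5.82. No array was a copy of another, and the median over all probe sets lay between 3.58 and 3.67 on the 9 arrays.

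In adult fragments most ribosomal protein messages of the set lay below their embryonic level by their representing probe sets. Of the 44 members 29 were called lower than in embryonic fragments and 1 was called higher, so 68.2% of the members were called and 65.9% of the members were called lower. Over all genes tested in this comparison 57.1% were called, 29.7% lower and 27.4% higher. The median difference of the members was -0.62, beside -0.02 for all genes. Of the members 42 of 44 differences were below 0, and of all genes 6295 of 12009. The arrays of the groups did not overlap for 34 members that were lower and 2 that were higher in adults, where 32.4% of all genes were lower without overlap and 30.3% higher. The size was moderate: 12 of the 44 members were called lower by 2-fold or more, as were 1838 of all 12009 genes. Differences of the members ran from -1.84 to 1.18. In tissue samples such as these, fewer cells of a type and less RNA per cell cannot be told apart.

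The median over the 44 members was 14.71, 14.83 and 14.72 on the embryonic fragment arrays, 14.74, 14.70 and 14.64 on the arrays of the rest of brain, and 13.75, 14.09 and 13.86 on the adult arrays. The embryonic arrays overlapped each other and all 3 adult arrays were below them, by more than the standard deviation of 0.11 between replicates. Adult replicate 1 had the lowest value of its group for 33 members. Without it, 24 members were still called lower and the median difference was -0.51.

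**Figure D1:**
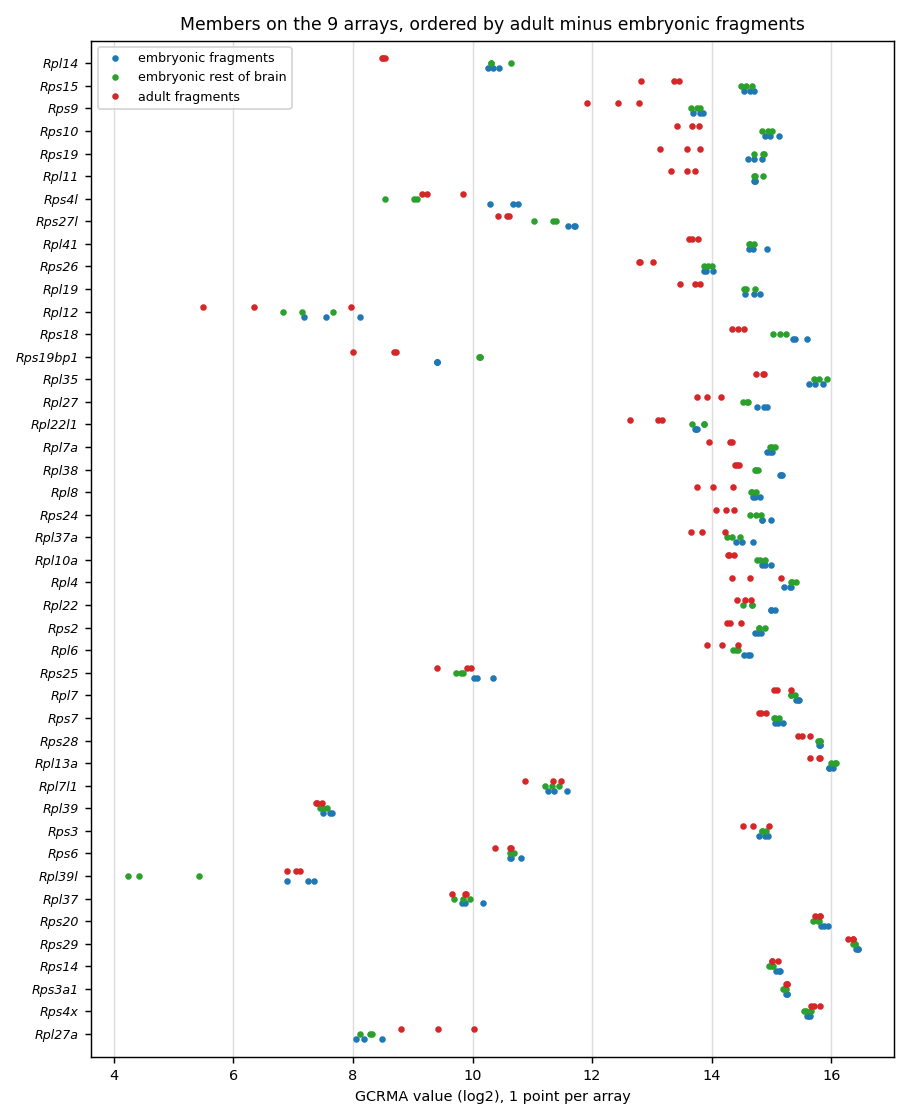
GCRMA value (log2, horizontal axis) of each of the 44 members on the 9 arrays, 1 point per array, coloured by group and ordered by the adult minus embryonic fragment difference. The adult points lie to the left of both embryonic groups for most members, while Rpl27a lies to the right and Rpl39l is low in the rest of brain alone.

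Among the 60S proteins 15 of 20 were called lower in adult fragments and 1 higher, with a median difference of -0.67. Rpl14, a protein of the solvent side of the large subunit, had values of 10.34, 10.25 and 10.44 in embryonic fragments, 10.64, 10.30 and 10.31 in the rest of brain and 8.48, 8.51 and 8.53 in adult fragments. The adult arrays lay close together and far below both embryonic groups. Rpl14 fell by 1.84 ± 0.12, or 3.58-fold (adjusted p = 3.96e-06), the largest fall of any member in the limma fit. Rpl11, which carries the 5S RNA into the large subunit and binds Mdm2 when free, read 14.71, 14.73 and 14.73 in embryonic and 13.32, 13.59 and 13.71 in adult fragments. It fell by 1.18 ± 0.12 without overlap of the arrays (adjusted p = 5.55e-05). Rpl41, the shortest of the ribosomal proteins, and Rpl19 also fell by 2-fold or more, with differences of -1.06 ± 0.11 and -1.02 ± 0.13. A further 11 proteins of this subunit were called lower by 0.29 to 0.91, from Rpl7, Rpl6, Rpl22 and Rpl4 at the small end to Rpl35 and Rpl27 at the large end.

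The exception among the 60S proteins was Rpl27a, which read 8.18, 8.05 and 8.49 in embryonic fragments, 8.32, 8.29 and 8.11 in the rest of brain and 9.43, 10.02 and 8.81 in adult fragments. All 3 adult arrays were above all 6 embryonic ones, spread over more than 1 unit. The difference was 1.18 ± 0.27, or 2.26-fold (adjusted p = 0.00579). It rests on a single probe set, since the other one of this gene did not pass the filter. The 4 large subunit proteins without a call were Rpl12, Rpl13a, Rpl37 and Rpl39. Of these, Rpl12 had the widest adult spread of all members, at 5.49, 6.35 and 7.96, and a difference of -1.02 ± 0.56 (adjusted p = 0.157) that passed the test without adult replicate 3 (adjusted p = 0.00579).

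Among the 40S proteins 10 of 18 were called lower and none higher, with a median difference of -0.33. The 5 with the largest falls were Rps15, Rps9, Rps10, Rps19 and Rps26, and the fall was at least 2-fold for each of them and for Rps18. Rps15, a protein near the decoding centre that is needed for export of the small subunit from the nucleus, read 14.55, 14.71 and 14.64 in embryonic and 12.81, 13.46 and 13.37 in adult fragments, a difference of -1.42 ± 0.17 (2.68-fold, adjusted p = 0.000143). Rps10, which sits near the entry of the message channel, read 14.97, 15.12 and 14.89 in embryonic and 13.42, 13.66 and 13.78 in adult fragments. Its fall of 1.37 ± 0.12 was about as large as that of Rps15, with a smaller spread between adult arrays (2.59-fold, adjusted p = 2.81e-05). Rps19, a 40S assembly protein mutated in Diamond-Blackfan anaemia, went from 14.61, 14.85 and 14.71 to 13.14, 13.58 and 13.80, a difference of -1.21 ± 0.17. For Rps9 the 2 probe sets past the filter moved in opposite directions, as described with the probe sets.

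The other 8 of the 40S proteins were not called, and several of them were nearly constant over the series. Rps3a1 had the smallest range of any member, 0.07 over all 9 arrays, and read 15.24, 15.26 and 15.26 in embryonic and 15.24, 15.25 and 15.26 in adult fragments. Rps29 (a range of 0.17) and Rps14 (0.18), whose loss of a copy marks the human 5q- syndrome, came next. All 3 lay near the top of the scale. Their lowest ranks among the probe sets of an array were the percentiles 99.75 (Rps3a1), 99.99 (Rps29) and 99.64 (Rps14). Rps29 was itself the highest value on embryonic fragment replicate 2 (16.445). Whether this place on normalized arrays kept their ranges small was not tested. Rps6, the protein that S6 kinases phosphorylate, differed by -0.14 ± 0.11 and Rps3 by -0.15 ± 0.13, both by their representing probe sets. With the mean of all probe sets of a gene Rps3 (adjusted p = 0.031) and Rps20 (adjusted p = 0.0226) were called lower in adult fragments. Rps4x, made from the X chromosome, was the only other member above 0, at 0.11 ± 0.09 (adjusted p = 0.366), and was called higher after cyclic loess between the arrays. The standard errors bound these differences but do not show that the levels were equal.

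**Figure D2:**
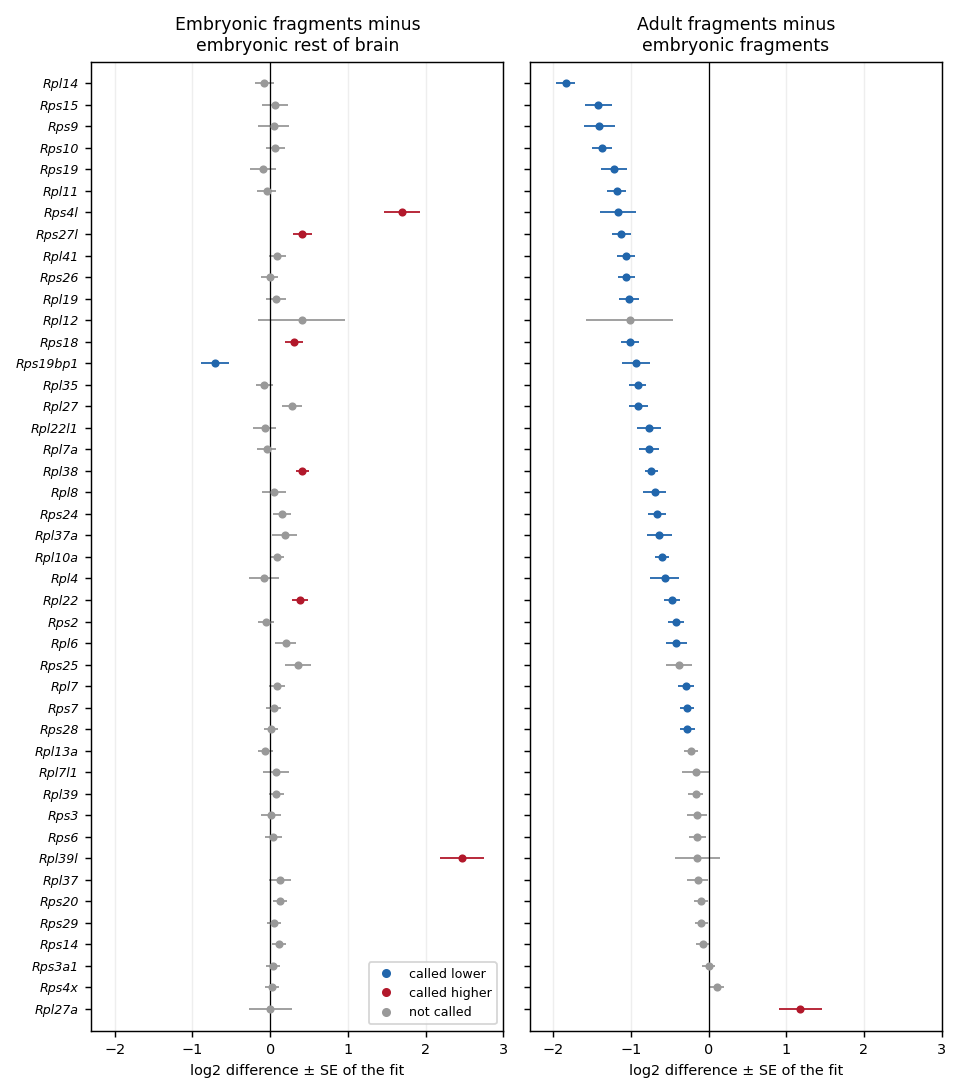
Log2 difference between groups for each member, with bars of 1 standard error from limma, embryonic fragments minus rest of brain on the left and adult minus embryonic fragments on the right. On the left nearly all points lie near 0 apart from Rpl39l at 2.47 and Rps4l at 1.70, and on the right they spread from 0 down to -1.84, with Rpl27a alone called higher.

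The 5 paralogs did not move as 1 group. Rps27l, a paralog of Rps27 that p53 can induce, fell by 1.13 ± 0.12 in adult fragments and Rps4l, a paralog of Rps4x, by 1.17 ± 0.23. Rpl22l1, a paralog of Rpl22, went from 13.75, 13.71 and 13.74 in embryonic to 12.63, 13.09 and 13.17 in adult fragments, a fall of 0.77 ± 0.15 (adjusted p = 0.00242). Rpl7l1 (-0.17 ± 0.17) and Rpl39l (-0.14 ± 0.29) were not called. Rps19bp1 fell by 0.93 ± 0.18.

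Against the embryonic rest of brain, 26 members were called lower in adult fragments and 2 higher, Rpl39l and Rpl27a, with a median of -0.46. Over all genes 76.0% were called there, 42.9% lower and 33.1% higher. Both comparisons use the same 3 adult arrays, so the counts are given side by side and are not independent. A total of 21 members were called lower in adults against both embryonic groups without a call between the embryonic groups, and 12 were called in none of the 3 comparisons (Rpl12, Rpl37, Rpl39, Rpl7l1, Rps14, Rps20, Rps25, Rps29, Rps3, Rps3a1, Rps4x and Rps6). The share of all genes with these patterns is not given here, so these counts describe the members only.

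Of the calls against embryonic fragments, those of Rpl4, Rpl6, Rpl7, Rps28 and Rps7 were small (differences of -0.27 to -0.56, adjusted p from 0.0277 to 0.044 in the limma fit). They were lost together after cyclic loess (24 members lower) and when embryonic fragment replicate 2, embryonic fragment replicate 3 or adult replicate 1 was left out (24 members lower each time). Some of the 5, and no other lower call, were lost when any other single array was left out. All 5 were also lost, with Rps2, when replicate number was used as a block on the embryonic arrays (23 members lower). Rps10, Rps15, Rps19, Rpl14 and Rpl11 were called lower in every setting that measured them.

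Start-site sequences of 12 members are shown to set some genes called lower beside some that were not called and some called between the embryonic tissues. They are from RefSeq on GRCm38.p6, where 38 of the 44 members had an entry, and give the 40 bases before and the first 30 bases from the transcript start, 5′ to 3′ on the gene's strand. Capitals mark any of the strings CTTTC, then CTTTT, and also CCTTT (which can overlap the others) from the start onwards, as letters of a TOP tract, and the string CCGGAAG or its reverse complement, the core bound by ETS factors, anywhere in the window.
Rpl14 (chr9:120571477-120571546, plus strand): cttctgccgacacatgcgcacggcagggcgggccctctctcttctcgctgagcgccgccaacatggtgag
Rpl11 (chr4:136053364-136053433, minus strand): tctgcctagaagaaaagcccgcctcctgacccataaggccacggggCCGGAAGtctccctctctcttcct
Rpl35 (chr2:39005102-39005171, minus strand): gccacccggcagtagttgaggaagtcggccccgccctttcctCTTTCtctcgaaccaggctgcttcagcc
Rps15 (chr10:80292391-80292460, plus strand): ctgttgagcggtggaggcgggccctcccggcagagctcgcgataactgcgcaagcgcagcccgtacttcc
Rps10 (chr17:27635215-27635284, minus strand): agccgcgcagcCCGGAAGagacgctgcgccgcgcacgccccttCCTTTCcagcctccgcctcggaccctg
Rps26 (chr10:128626477-128626546, minus strand): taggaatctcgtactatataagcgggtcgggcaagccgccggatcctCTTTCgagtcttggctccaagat
Rpl38 (chr11:114668540-114668609, plus strand): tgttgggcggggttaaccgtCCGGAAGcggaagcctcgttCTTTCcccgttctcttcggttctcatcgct
Rps27l (chr9:66946046-66946115, plus strand): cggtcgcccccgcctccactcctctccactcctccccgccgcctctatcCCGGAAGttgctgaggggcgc
Rpl39l (chr16:10170188-10170257, plus strand): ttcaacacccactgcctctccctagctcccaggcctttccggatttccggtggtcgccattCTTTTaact
Rps6 (chr4:86857338-86857407, minus strand): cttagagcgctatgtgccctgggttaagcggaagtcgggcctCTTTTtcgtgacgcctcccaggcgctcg
Rps3a1 (chr3:86142639-86142708, minus strand): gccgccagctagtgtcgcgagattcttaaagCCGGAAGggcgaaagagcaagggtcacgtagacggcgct
Rps4x (chrX:102189362-102189431, minus strand): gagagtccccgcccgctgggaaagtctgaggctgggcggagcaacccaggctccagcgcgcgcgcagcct
Rps10 and Rps26, which fell by over 2-fold, hold at least 1 of the TOP strings, as do Rpl35 and Rpl38, which fell by less. So do Rpl39l and Rps6, which were not called between the ages. Rpl14 holds none of the 3 strings but begins with C and 4 more pyrimidines, as do Rpl35, Rpl38, Rps10 and Rps6 among those shown. Rpl11, Rps15 and Rps27l, which fell by over 2-fold, have neither form in this window, and nor do Rps3a1 and Rps4x, which were not called.

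Over the members with an entry, 11 of 38 (28.9%) held at least 1 of the 3 TOP strings in the first 30 bases on the written strand, beside 7.52% of the 9718 tested genes with an entry. A stricter form, C and 4 more pyrimidines from the first listed base, was found in 6 members (15.8%) and in 3.07% of tested genes. The ETS core on either strand of the 300 bases around the start was found in 19 members (50.0%) and in 19.3% of tested genes. Within the members, TOP strings were found in 6 of the 26 called lower in adult fragments (23.1%) and in 5 of the other 12 (41.7%), while the stricter form was found in 5 of the 26 (19.2%) and in 1 of the 12 (8.33%). These are matches of letters around listed starts, and a start listed a few bases away from the true one changes them.

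Between the embryonic tissues the ribosomal protein messages hardly differed by their representing probe sets. Of the 44 members 6 were called higher in embryonic fragments than in the rest of brain and 1 lower, which is 15.9%, where 66.1% of all genes were called, 28.9% higher and 37.2% lower. The median difference was 0.06, beside -0.10 for all genes. Of the members 41 of 44 lay within 0.5 of 0, and of all genes 4426 of 12009. Of the 38 canonical proteins of both subunits only Rpl38, Rpl22 and Rps18 were called, each by less than 0.5. Without probe sets whose identifiers mark shared probes only 18 members were measured, and 5 of them were called higher and 3 lower. The arrays did not overlap for 14 members that were higher and 2 that were lower in fragments, where 33.1% of all genes were higher without overlap and 43.6% lower. These counts are from the fit without pairing of arrays. With replicate number as a block 5 members were higher and 1 lower.

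The largest differences were in paralogs. Rpl39l, a paralog of Rpl39 known chiefly from the testis, read 6.90, 7.35 and 7.25 in embryonic fragments, 4.24, 5.42 and 4.43 in the rest of brain and 7.12, 6.90 and 7.04 in adult fragments. Fragments of both ages overlapped each other and lay above the rest of brain without overlap. The difference between the embryonic tissues was 2.47 ± 0.29, or 5.54-fold (adjusted p = 6.24e-05), and that between adult fragments and the rest of brain was 2.33 ± 0.29. Its canonical partner Rpl39 read between 7.38 and 7.64 on all 9 arrays and was called in no comparison. This rests on a single dim probe set, and whether it follows the main message of Rpl39 was not tested.

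Rps4l read 10.68, 10.75 and 10.29 in embryonic fragments, 9.07, 9.02 and 8.53 in the rest of brain and 9.83, 9.23 and 9.16 in adult fragments. Embryonic fragments were the highest group without overlap, at 1.70 ± 0.23 above the rest of brain (3.24-fold, adjusted p = 0.000172). Adult fragments lay between them. Rps27l, at 11.60, 11.69 and 11.71 against 11.34, 11.39 and 11.03, was 0.41 ± 0.12 higher in embryonic fragments (adjusted p = 0.0159). Rpl22l1 and Rpl7l1 did not pass the test, with differences of -0.07 ± 0.15 and 0.07 ± 0.17.

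Rpl38, a 60S protein known for its part in the translation of Hox messages in the embryo, had 15.17, 15.16 and 15.14 in embryonic fragments, 14.78, 14.74 and 14.72 in the rest of brain and 14.46, 14.39 and 14.42 in adult fragments. The 3 groups were separate, with spreads of under 0.1 inside each. Rpl38 was 0.41 ± 0.09 higher in embryonic fragments than in the rest of brain (adjusted p = 0.0024) and 0.74 ± 0.09 lower in adult than in embryonic fragments (adjusted p = 0.000122). Rpl22, an RNA-binding 60S protein, was 0.38 ± 0.10 higher in embryonic fragments by its representing probe set (adjusted p = 0.00999). Rps18 was 0.31 ± 0.12 higher by its representing probe set (adjusted p = 0.041). The call was lost with the replicate block (adjusted p = 0.0512) and with arrays centred on their medians (adjusted p = 0.0579). It was also lost with the mean of all probe sets (adjusted p = 0.176). Leaving out any 1 of embryonic fragment replicates 2 and 3 and rest of brain replicates 2 and 3 lost it too (5 members higher each time). Of its other probe sets past the filter, 1455572_x_at was not called (0.12 ± 0.10) and 1448739_x_at was called higher (0.44 ± 0.12).

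The member called lower in embryonic fragments was Rps19bp1, at 9.40 on all 3 fragment arrays against 10.12, 10.10 and 10.12 in the rest of brain. It read 8.0, 8.69 and 8.72 in adult fragments and so was highest in the rest of brain and lowest in adult fragments without overlap. The difference between the embryonic tissues was -0.71 ± 0.18 (adjusted p = 0.00779).

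Of the 44 members 20 have several probe sets past the filter, and all probe sets past it were compared in 1 fit. The 47 symbols are named alone by 102 probe sets, of which 88 passed the filter, and 33 of the 44 members are represented by one whose identifier (_x_at, _s_at or _a_at) marks probes shared between transcripts. For adult against embryonic fragments 60 of 88 probe sets were called lower and 2 higher, where 31.8% and 23.8% of all probe sets were. Of the 44 that do not represent their gene 42 had the sign of the representing one. The size differed more than the sign: for Rpl13a, whose protein is known for a second role in silencing inflammatory messages, the brightest probe set differed by -0.23 ± 0.10 and was not called, while the dimmest fell from 13.98, 14.01 and 13.95 in embryonic to 10.60, 11.50 and 11.33 in adult fragments, a difference of -2.83 ± 0.22.

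Rps9 was the member whose probe sets were called in opposite directions between the ages. Its representing probe set (1433689_s_at) read 13.69, 13.85 and 13.80 in embryonic and 11.92, 12.43 and 12.78 in adult fragments, and was called lower by 1.41 ± 0.20. A second probe set (1434624_x_at) read 10.50, 10.62 and 10.71 in embryonic fragments, 10.72, 10.58 and 10.64 in the rest of brain and 15.52, 16.07 and 15.97 in adult fragments. The second one was thus 5.24 ± 0.16 higher in adults (37.8-fold), and with the mean of all probe sets of the gene Rps9 was 1.21 higher. Both identifiers mark shared probes, and which transcripts they bound in the adults was not tested. The direction for Rps9 therefore depends on the probe set.

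In the comparison of embryonic tissues 13 of the 88 probe sets were called higher in fragments and 5 lower, where 30.9% and 32.7% of all probe sets were. Dimmer probe sets of 5 members were called in a direction in which the representing one was not. For Rpl22 the dimmest probe set was called lower in fragments, at -1.05 ± 0.23, while the other 2 were called higher. For Rps3 and Rps20 the bright probe sets were not called, and dimmer ones without shared-probe identifiers were called lower in fragments, by 1.11 ± 0.14 and 1.77 ± 0.18. The same probe sets were called lower in adult than in embryonic fragments, by 0.55 ± 0.14 for Rps3 and 0.77 ± 0.18 for Rps20. For Rpl41 the bright probe sets were not called between the embryonic tissues and both dimmer ones were called higher in fragments, by 0.58 ± 0.20 and 0.81 ± 0.22. For Rps24, which is spliced in several forms, the probe set 1455195_at read 9.97, 9.58 and 9.23 in embryonic fragments, 6.90, 7.31 and 6.50 in the rest of brain and 9.37, 9.76 and 10.60 in adult fragments. It was called 2.69 ± 0.35 higher in embryonic fragments and 3.01 ± 0.35 higher in adult fragments than in the rest of brain, while the 4 brighter probe sets of this gene were called lower in adults.

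**Figure D3:**
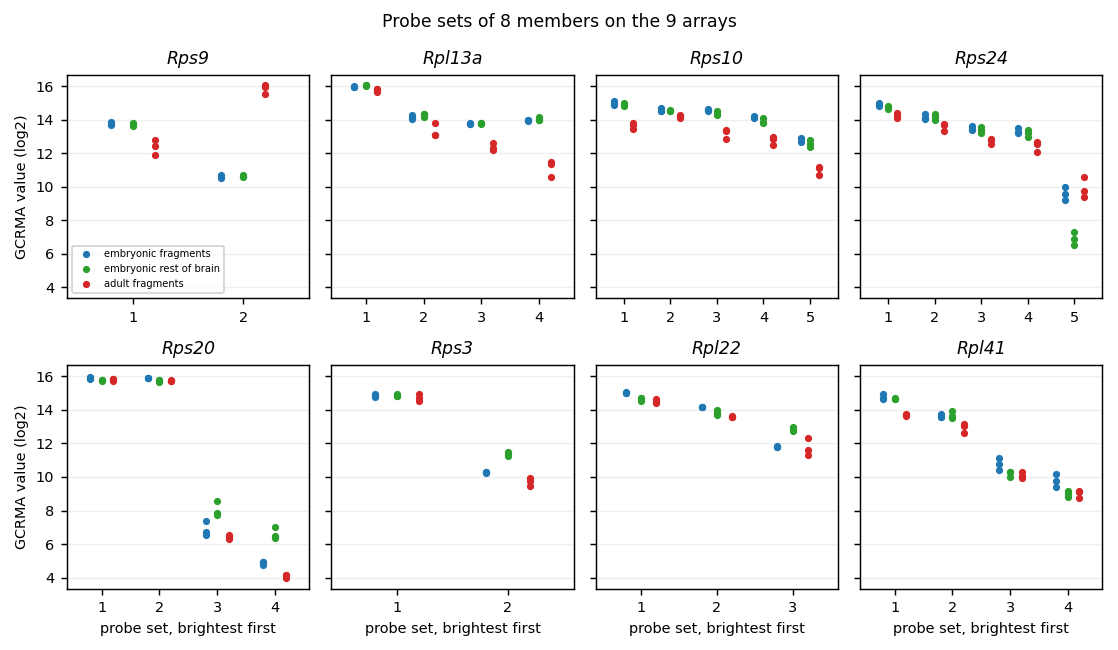
GCRMA value (log2, vertical axis) of every probe set past the filter for 8 members with several, 1 point per array, numbered from the brightest (horizontal axis) and coloured by group. The second probe set of Rps9 rises from about 10.6 to 16 in adult fragments while the first falls, and the fifth of Rps24 is high in fragments of both ages.

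A further 109 probe sets name a ribosomal protein beside other genes and were left out of the set, and 30 symbols are named there alone. Of these probe sets 100 passed the filter, and 46 were called lower and 4 higher in adult than in embryonic fragments. Over all probe sets 31.8% were called lower and 23.8% higher. Their median was -0.28, nearer to 0 than the -0.68 over the 88 probe sets of the members, so the fall was smaller and less common here. In embryonic fragments against the rest of brain 8 were called higher and 4 lower, with a median of 0.09, where 30.9% and 32.7% of all probe sets were.

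Most members gave signals near the top of the array scale, where the highest value on an array was 16.39 to 16.80. The mean was at least 14 for 29 members and at least 15 for 12. It was far lower for some canonical proteins, among them Rpl14 (9.8), Rpl27a (8.6), Rpl39 (7.5) and Rpl12 (7.1). Whether such dim probe sets follow the main message of their gene was not tested. Of the 12 brightest 6 were called lower in adult fragments, with a median difference of -0.25, beside 16 of 17 with a mean of 14 to 15 (median -0.74) and 7 of 15 under 14 (median -0.77). Over the 44 members, signal and difference had a Pearson r of -0.04 and a Spearman rho of 0.31, a description over genes that share the same 9 arrays. Of the 206 other genes with a mean of at least 14, 30.6% were called lower and 24.8% higher in adult fragments, with a median of -0.04, and 50.0% were called between the embryonic tissues, beside 75.9% of the 29 members lower in adult fragments and 10.3% called between the embryonic tissues.

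**Figure D4:**
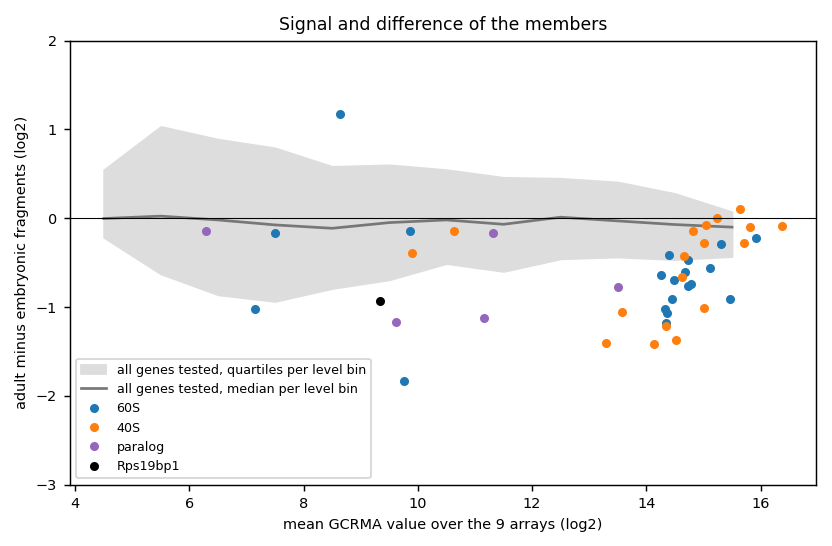
Adult minus embryonic fragment difference (log2, vertical axis) against the mean GCRMA value over the 9 arrays (log2, horizontal axis) for the 44 members, coloured by role, with the median and quartiles of all tested genes per level bin as a line and a band. Most members with a mean of 14 to 15 lie below the band, and those above 15 lie mostly inside it. The band includes the members themselves, which are 12 of the 47 genes in the bin from 15.

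The other ribosomal proteins and the rest of the translation machinery were set beside the members. The 4 ribosomal proteins with symbols outside the rule were all called lower in adult fragments: Fau, the precursor of Rps30, by 1.68 ± 0.15, the stalk protein Rplp0 by 1.56 ± 0.24, Rpsa of the 40S subunit by 1.08 ± 0.13 and the stalk protein Rplp2 by 0.68 ± 0.10. None of them was called between the embryonic tissues, where their differences ran from -0.071 to 0.185. Of 76 mitochondrial ribosomal proteins, which are encoded in the nucleus and serve the ribosome of the mitochondrion, 55 were called lower and 1 higher, with a median of -0.70. Mrps27 (-2.32 ± 0.39) and Mrps11 (-2.18 ± 0.14) fell furthest among them, and Mrps9 rose by 0.42 ± 0.10 by its representing probe set. Between the embryonic tissues 7 of the 76 were called higher, led by Mrpl17 (0.95 ± 0.13), and 8 lower, led by Mrps22 (-1.0 ± 0.17) and Mrps6 (-0.81 ± 0.13). These were 9.21% and 10.5%, where 28.9% and 37.2% of all genes were called.

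Of 15 other transcripts known to begin with a TOP tract, 7 were called lower in adult fragments and none higher, with a median of -0.42. The histone chaperone Nap1l1 (-1.07 ± 0.09) and Naca, which binds nascent chains at the ribosome (-0.95 ± 0.15), fell furthest, while Eef1a1 (0.11 ± 0.10) and Tpt1 (-0.08 ± 0.09) were not called. Of the same transcripts Pabpc1 was called higher in embryonic fragments than in the rest of brain (0.32 ± 0.09) and Eef2 (-0.82 ± 0.20) and Nap1l1 (-0.55 ± 0.09) lower.

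Initiation factors were taken by symbol (Eif and a digit, without Eif2ak and Eif4ebp). Not each of them need load the 40S subunit onto the message. Of these genes 24 of 40 were called lower in adult fragments and 5 higher, with a median of -0.51. By their representing probe sets the cap-binding homologue Eif4e2 (-1.84 ± 0.13) and Eif3k (-1.30 ± 0.25) fell furthest and Eif5a2 rose by 3.03 ± 0.16. At the embryonic stage 7 factors were higher and 7 lower in fragments than in the rest of brain, among them Eif4e2 (1.18 ± 0.13), Eif4e3 (0.77 ± 0.13) and Eif5a2 (-1.77 ± 0.16). The direction for Eif4e2 depends on the probe set. Without shared-probe identifiers its embryonic difference was -1.84 (adjusted p = 4.29e-06), and with the mean of all probe sets it was 0.116 (adjusted p = 0.405). Of 6 elongation factors Eef1b2 (-0.66 ± 0.09) and Eef1e1 (-1.28 ± 0.14), a member of the synthetase complex, were lower in adults, and Eef1a2, the form of neurons and muscle (-3.05 ± 0.20), was 1 of 3 lower in embryonic fragments than in the rest of brain. Of 19 aminoacyl-tRNA synthetases 10 were lower and 2 higher in adults, with Farsa (-1.98 ± 0.24), Cars (-1.57 ± 0.32) and Nars (0.97 ± 0.15) at the ends. In the embryo 6 of them were lower in fragments, such as Yars (-1.06 ± 0.21) and Vars (-1.04 ± 0.22), and Iars was higher (0.33 ± 0.10).

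Of 54 ribosome biogenesis genes 29 were called lower in adult fragments and 2 higher, with a median of -0.48. The box C/D snoRNP protein Nop58 fell by 1.86 ± 0.17 and the RNA acetyltransferase Nat10 by 1.79 ± 0.54, while the 40S maturation kinase Riok2 rose by 1.63 ± 0.33. In embryonic fragments against the rest of brain 8 were higher (14.8%) and 12 lower (22.2%), where 28.9% and 37.2% of all genes were. Among them were Ltv1 at 1.07 ± 0.13, Nop58 at -1.04 ± 0.17 and Rrn3, an initiation factor of RNA polymerase I, at -0.94 ± 0.15. Of 18 genes of translational control 9 were lower and none higher in adults. Myc, an activator of ribosomal protein genes, fell by 3.30 ± 0.13, Mycn by 2.0 ± 0.49 and Larp1, which binds TOP messages, by 0.55 ± 0.10, while Mtor was not called (-0.23 ± 0.11). A total of 8 were higher in embryonic fragments than in the rest of brain, led by the double-stranded RNA kinase Eif2ak2 (3.52 ± 0.29, with 1 of 3 arrays of the rest of brain under 4) and the mTOR target Eif4ebp1 (3.02 ± 0.17), and 2 lower, one of them Mycn (-2.60 ± 0.49).

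Of 11 genes in a list set up for free ribosomal proteins and the response to them, 5 were lower and 2 higher in adults. A place in this list does not show such a part for each gene, Aarsd1 among them. The genes named in adults were Sesn2 (-1.76 ± 0.19), the Rpl3 chaperone Grwd1 (-1.48 ± 0.18) and Gadd45a (0.75 ± 0.26). In the embryo 3 were higher in fragments, among them the p53 target Cdkn1a (3.83 ± 0.34) and Sesn2 (0.85 ± 0.19), and 3 lower, among them Aarsd1 (-0.92 ± 0.32). In each of these lists more genes were called lower than higher in adult fragments, against 29.7% lower and 27.4% higher over all genes. Between the embryonic tissues 28.9% of all genes were called higher and 37.2% lower. Of the lists set beside the members, translational control had a larger share higher (44.4%) and elongation factors a larger share lower (50.0%). Every other share of these lists was below that of all genes. Among the genes named from these lists, Gadd45a was not called in adult fragments in 10 other settings, Nat10 not without embryonic fragment replicate 3 (adjusted p = 0.0613), Aarsd1 not between the embryonic tissues without any 1 of the 6 embryonic arrays (adjusted p from 0.0591 to 0.0952) and Iars not without rest of brain replicate 2 (adjusted p = 0.0515). Without probe sets of shared-probe identifiers Farsa (adjusted p = 0.112) and Riok2 (adjusted p = 0.351) were not called between the ages, Iars and Nap1l1 were not called between the embryonic tissues, and the differences of Eif4e2 and Mrps9 turned sign. The lists were read as counts and medians, and no list was tested against another.

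**Figure D5:**
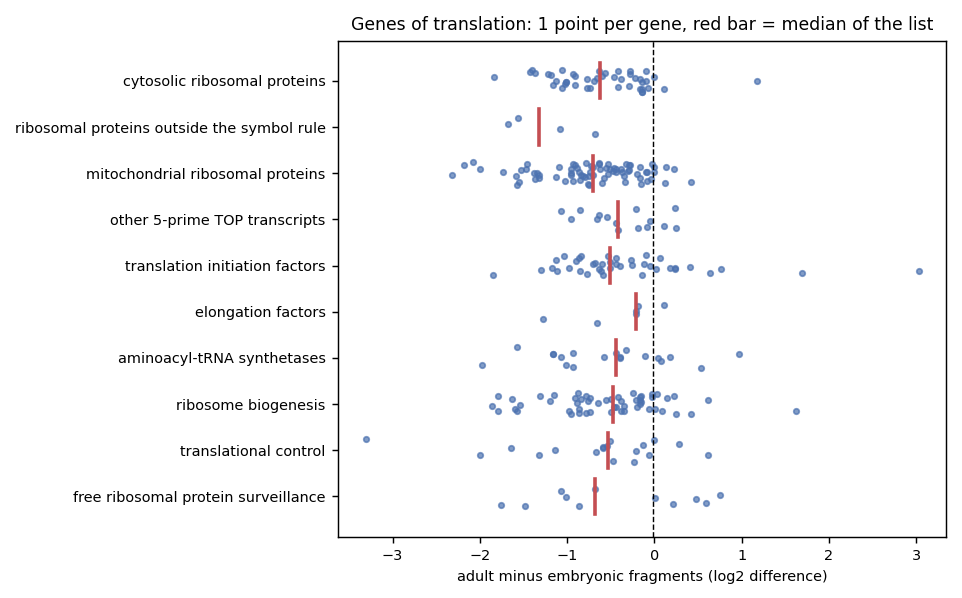
Adult minus embryonic fragment difference (log2, horizontal axis) of each tested gene of 10 lists of translation genes, 1 point per gene. The median of the list is a red bar, and the median of all genes tested (-0.02) is dashed. The medians run from -1.32 for the 4 ribosomal proteins outside the symbol rule to -0.21 for the 6 elongation factors, all below 0.

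Markers of cell types and of the cell cycle were read in the same comparisons, and between the ages the marker lists moved in different directions. All 9 proliferation genes were called lower in adult fragments, with a median difference of -7.53. Their summed level (log2 of the summed linear values) was 14.59 to 14.69 in embryonic fragments, 14.68 to 14.84 in the rest of brain and 10.77 to 11.24 in adult fragments, where 2 of 9 were under 4 on all arrays. Summed endothelial levels were 17.28 to 17.46 in embryonic and 17.49 to 17.50 in adult fragments, and 2 of 10 markers were called higher and 2 lower in adults. Neuronal sums were 10.20 to 11.38 in embryonic and 9.94 to 10.59 in adult fragments, against 15.72 to 16.09 in the rest of brain, and 4 of the 8 markers were under 4 on all adult arrays. Of 5 astrocyte markers 4 were higher and 1 lower in adult fragments (sums of 10.19 to 11.59 in embryonic and 12.83 to 13.59 in adult fragments), and of 3 oligodendrocyte markers 2 were higher and 1 lower (sums of 6.41 to 8.01 and 10.15 to 10.53). Of 6 neural progenitor markers 4 were lower and none higher in adults (14.48 to 15.25 and 11.08 to 11.53), and 2 of them were under 4 on all adult arrays. Of 5 pericyte markers 1 was higher and 1 lower in adult fragments (15.85 to 16.15 and 16.28 to 16.37), of 6 markers of microglia and macrophages none was higher and 1 lower (15.43 to 16.76 and 16.15 to 16.67), and of 4 red cell genes 1 was higher and 2 lower (9.45 to 10.64 and 10.78 to 11.09). In the embryonic rest of brain the sums were 11.86 to 12.19 for endothelial, 12.92 to 13.59 for pericyte, 14.37 to 14.89 for astrocyte and 13.03 to 13.28 for microglia and macrophage markers. The part of any of these in the ribosomal protein differences was not tested.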

How the data were processed

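The authors deposited log2 values per probe set. The submitters' processing notes name GCRMA 2.6.0 and R 2.4.1. GCRMA corrects background by base composition and quantile-normalizes the arrays, so a change in total RNA per cell is not seen. That the scale is log2 was read from the range. Scanner files were not used here, so background correction and scan batches could not be varied. The table's 45101 probe sets were named through the platform annotation, 34958 to 1 gene and 932 to several. A gene is its brightest single-gene probe set by the mean of the 9 arrays, kept at 4 or more on 3 arrays.

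Tests used limma 3.58.1 under R 4.3.3 (lmFit, eBayes, 2-sided, 8.43 degrees of freedom) over all 9 arrays, with Benjamini-Hochberg adjustment over 12009 genes. Probe sets were fitted alike. The code was tested on simulated data. The members, lists and alternatives were chosen with earlier results of these data known. Named genes were the 5 largest called differences without overlap in each direction and comparison, paralogs, members with opposed probe sets, the 3 largest and 3 smallest ranges, from each list the 2 largest in the main direction and 1 in the other, and all ribosomal proteins outside the symbol rule; other names were chosen after their values were seen. The ETS search was added last. The number of arrays limits precision.

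Same-numbered embryonic fragment and rest of brain arrays deviated together (correlations of 0.194, 0.199 and 0.217 over genes), so their numbers were taken as pairs in the settings with a block. No label says what a number marks, and the main fit used no pairs. Same-numbered adult and embryonic fragment arrays did not all do so (0.033, -0.083 and 0.215). Arrays of unlike number and age also reached this size, such as adult replicate 2 with embryonic fragment replicate 1 (0.208), so the pairs are not certain.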

Additional observations from a re-analysis of the deposited data

How the results depend on the processing

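A total of 22 other settings were tried, 9 of which leave out 1 array each, and each of the 3 medians kept its sign in all of them. The block on embryonic arrays and the variance prior that follows the level were chosen after seeing the data. For adult against embryonic fragments, 29 lower calls became 24 with cyclic loess, 26 with the replicate block on all arrays and 10 of 18 members without shared-probe identifiers. The 1 higher call became 2 with cyclic loess and with the mean of all probe sets, and the median was -0.49 with cyclic loess and -0.51 with that mean. Leaving out 1 array gave 24 to 29 lower calls and medians of -0.65 to -0.51. Between the embryonic tissues, leaving out 1 array gave 5 to 8 higher calls and the replicate block 5. With the mean of all probe sets 6 members were higher and 3 lower. Without shared-probe identifiers 5 of 18 members were higher and 3 lower. For adult fragments against the rest of brain, cyclic loess gave 4 higher calls and a median of -0.34 (it moved the median of all genes by 0.14), no filter a median of -0.32, and probe sets without shared-probe identifiers 7 lower calls and a median of -0.16. Signs that turned did so with other probe sets of the gene. With the mean of all probe sets, embryonic fragments minus rest of brain was -0.11 for Rpl22, -0.66 for Rps20 and -0.37 for Rps3, adult minus embryonic fragments was 1.21 for Rps9, and adult fragments minus rest of brain was -1.03 for Rps20, 0.072 for Rps24 and 1.39 for Rps9. Without shared-probe identifiers the first was -1.84 for Eif4e2, -1.77 for Rps20 and -1.11 for Rps3, the second 0.048 for Eif4e2, -0.006 for Mrps9 and 0.32 for Rps24, and the third 0.041 for Rpl41, -2.54 for Rps20 and 3.01 for Rps24. Of 3515 values of single genes under other settings, 124 lost a call, 41 gained one and 16 turned sign. The cause was not tested.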
